A study of Homo sapiens with 9 samples.

Results

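The human translation initiation factor genes are described here in MOLM13, an established acute myeloid leukaemia cell line of monocytic type with a KMT2A rearrangement. Members were the protein-coding rows of both deposited tables whose symbol begins with EIF and a digit. The rule left out 1 member on chromosome Y and gave 55 genes of 59699 rows in each table, by symbol alone and with no use of measured values. Some of these genes carry the family name without acting as core factors, such as EIF1AD, a protein with a domain like that of eIF1A. Cells were grown for 72 h with the solvent DMSO, with iberdomide (CC-220) at 1 µM or with mezigdomide (CC-92480) at 50 nM. Each of the 3 groups has 3 libraries, 9 in all. The treatment label of the mezigdomide libraries spells the compound CC-92840, while their titles and the study design give CC-92480. Both compounds act through cereblon, which selects proteins for ubiquitination by an E3 ligase, and all groups share the cell line and the solvent. The labels do not state whether replicate libraries stem from independent cultures, and the p-values therefore reflect variation among libraries that may be technical.

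Initiation begins when eIF2, a GTP-binding trimer, brings the initiator tRNA to the small ribosomal subunit together with eIF1, eIF1A, eIF3 and eIF5. The complex eIF4F, made of the cap-binding protein eIF4E, the scaffold eIF4G and the helicase eIF4A, attaches it to the mRNA cap. The factor eIF2B recharges eIF2 with GTP, and phosphorylation of eIF2 by stress kinases blocks that step. The eIF4E-binding proteins sequester eIF4E unless they are phosphorylated by mTORC1. In leukaemia cells eIF4F and the eIF2 kinases are studied because many growth and stress proteins depend on them.

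Each table holds 1 comparison with DMSO, and values per library were not analysed here. For each member the values are the mean normalised count over all 9 libraries, and the log2 fold change, its standard error (SE) and the adjusted p-value of the authors' DESeq2 Wald test with Benjamini-Hochberg adjustment. These 4 kinds of value come from the authors' deposited tables where no other setting is named. Values for an alternative setting, such as another filter or a removed trend, and for the difference between the drugs were computed here. A member was called higher or lower at an adjusted p under 0.05. Levels given for a single group were computed here by splitting the mean according to the 2 fold changes, so they have no spread of their own. Depth recovered from the tables ran from about 20900000 to 25300000 counted reads per library. Of 10 marker genes of a monocytic leukaemia line, 9 had a mean of at least 100 normalised counts, with 40.1 for CD14. LYZ (1.39 and 1.51), MPO (0.91 and 1.11), CSF1R (1.34 and 1.54) and CD14 (1.79 and 1.49) were called higher under iberdomide and mezigdomide, as log2 fold changes. CD33 was also called higher (0.24 and 0.19). The other 5 were not called under either drug: FLT3 stood at -0.03 and 0.09, HOXA9 at -0.08 and -0.15, ITGAM at -0.32 and 0.05, MEIS1 at -0.08 and -0.06 and SPI1 at 0.03 and -0.001. Of the markers of T cells, B cells, epithelial cells and fibroblasts, 3 for each, only COL1A1 (101) reached 100, and CD2 and DCN were at 0. COL1A1 was higher under iberdomide by 1.41 on the log2 scale (adjusted p = 1.5e-15) and under mezigdomide by 1.49 (adjusted p = 1.05e-17), and the part of these markers in the results below was not tested.

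Most initiation factor transcripts stayed close to their DMSO level under both drugs. Of the 55 members 54 had counts and all 54 were tested, while EIF4E1B, an eIF4E relative of oocytes, was at 0 in all libraries. Under iberdomide 6 of 54 were called (11.1%), 4 higher and 2 lower, where 14.1% of all 19497 tested features were called, 7.3% higher and 6.77% lower. Under mezigdomide 11 of 54 were called (20.4%), 7 higher and 4 lower, beside 21.2% of all 20819 tested features, 10.4% higher and 10.7% lower. With higher and lower calls pooled, the members' share was under that of all features for each drug. The share called higher was not under that of all features for either drug, and the share called lower was. These differences, of few genes, were not tested. Protein-coding genes whose mean reached 1000 normalised counts, a limit chosen after the values were seen, had 17.1% called under iberdomide and 30.0% under mezigdomide. The 43 members above that mean had 11.6% and 18.6% called. The 6 members called under iberdomide, EIF1AD, EIF2AK2, EIF2S3, EIF3L, EIF4A2 and EIF4EBP1, were also called under mezigdomide, and both comparisons share the DMSO libraries.

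The changes were small. No member changed by more than 1.5-fold under either drug. Of all tested features, 6.38% passed that size under iberdomide and 8.44% under mezigdomide. Of protein-coding genes whose mean reached 1000 normalised counts, only 2.96% and 4.55% passed it. At such shares few of 54 members would pass, so this absence does not by itself set the family apart. The difference from either background was not tested. The 95% interval of the fold change lay within 1.5-fold either way for 50 of 54 members under each drug, and within 2-fold for all 54. EIF2AK2, EIF2B3, EIF3CL and EIF4EBP1 were the members whose interval reached past 1.5-fold under each drug. The median log2 fold change of the members was -0.03 under iberdomide and -0.08 under mezigdomide, beside -0.01 and -0.007 over all tested features.

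**Figure D1:**
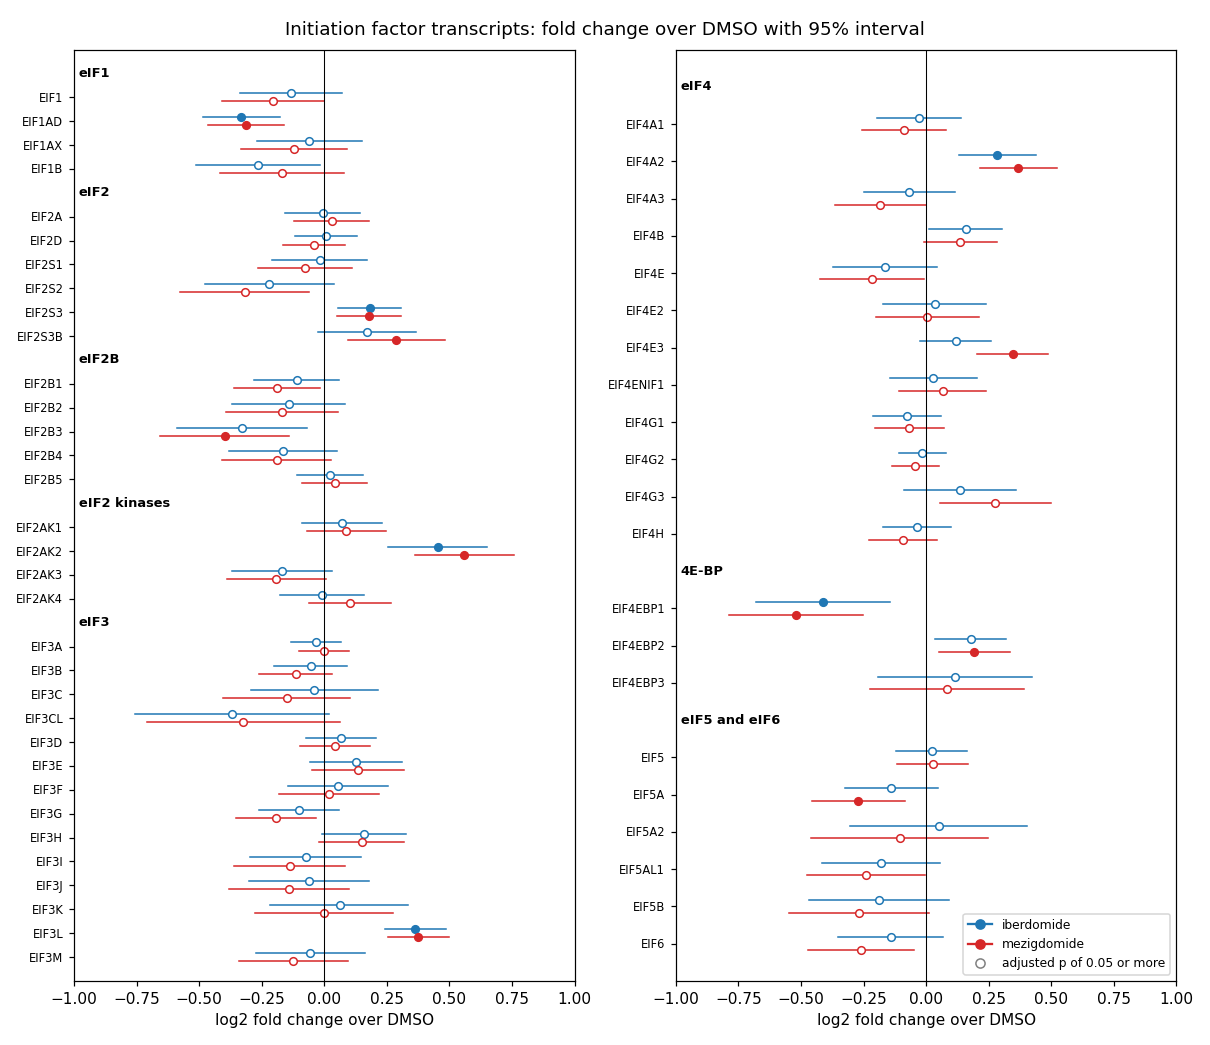
Log2 fold change over DMSO (x axis) of the 54 members with counts, grouped by factor, for iberdomide (blue) and mezigdomide (red). Bars are 95% intervals from the SE, and filled points passed an adjusted p of 0.05. The filled points number 6 for iberdomide and 11 for mezigdomide, and every point lies between -0.52 and 0.56.

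The promoter stretches of 4 called members are shown because they hold the sequence features discussed with these genes. They were taken from the RefSeq promoter windows (GRCh38.p14, 300 bases, 250 before the annotated start and 50 after), in which 46 of the 55 members have an entry and EIF2AK1, EIF2S2, EIF3A, EIF3CL, EIF3E, EIF3G, EIF3H, EIF3L and EIF4EBP1 do not. Each stretch holds the 100 bases before the annotated start and the first 10 bases from it, on the gene's own strand. Capitals in EIF2AK2 mark the core of an interferon-stimulated response element (chr2:37156971-37157080, minus strand), and in EIF1AD an ETS motif (chr11:66002148-66002257, minus strand). Capitals in EIF2S3 (chrX:24054856-24054965, plus strand) and EIF4A2 (chr3:186783477-186783586, plus strand) mark a C followed by 4 pyrimidines at the annotated start, the pattern of terminal oligopyrimidine mRNAs.
EIF2AK2: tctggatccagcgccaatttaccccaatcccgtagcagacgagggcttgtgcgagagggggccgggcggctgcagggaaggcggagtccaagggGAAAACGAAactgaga
EIF1AD: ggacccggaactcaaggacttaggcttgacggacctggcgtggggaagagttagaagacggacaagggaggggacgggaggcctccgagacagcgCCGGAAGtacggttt
EIF2S3: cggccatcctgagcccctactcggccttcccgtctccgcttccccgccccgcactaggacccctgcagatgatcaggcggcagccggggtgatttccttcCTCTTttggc
EIF4A2: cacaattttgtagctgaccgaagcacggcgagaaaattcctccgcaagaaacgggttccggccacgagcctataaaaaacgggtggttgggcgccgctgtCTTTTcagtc

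The largest rise among the members was that of a kinase of eIF2. EIF2AK2 encodes PKR, which is activated by double-stranded RNA and is itself an interferon-response gene (chromosome 2, 37099210 to 37157065, GRCh38). Its level was 1121 normalised counts in DMSO, 1535 under iberdomide and 1654 under mezigdomide. The authors' deposited tables give it a log2 fold change of 0.45 (SE 0.10, adjusted p = 0.000114) under iberdomide and 0.56 (SE 0.10, adjusted p = 4.57e-07) under mezigdomide, rises of 36.9% and 47.5%. The other 3 kinases were not called under either drug. EIF2AK1, the haem-regulated kinase, stood at 0.07 and 0.09 (adjusted p = 0.704 and 0.525). EIF2AK3, the endoplasmic reticulum kinase PERK, stood at -0.17 and -0.19 (adjusted p = 0.336 and 0.187), and it passed under mezigdomide with a trend in GC content and length removed (-0.26, adjusted p = 0.0487). EIF2AK4, the amino acid sensor GCN2, stood at -0.009 and 0.10 (adjusted p = 0.976 and 0.467). By transcript length EIF2AK1 was the most abundant of the 4, at 1110 normalised counts per kb, followed by EIF2AK4 at 327, EIF2AK2 at 143 and EIF2AK3 at 95.8.

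Of the 3 subunits of the eIF2 trimer, EIF2S3 was called and EIF2S1 and EIF2S2 were not, and the difference between subunits was not tested. EIF2S3, the GTP-binding gamma subunit, was at 7708 normalised counts in DMSO, 8738 under iberdomide and 8723 under mezigdomide. It rose by 13.4% under iberdomide (log2 0.18, SE 0.065, adjusted p = 0.0396) and by 13.2% under mezigdomide (log2 0.18, SE 0.065, adjusted p = 0.0312). With no filter on low means, which leaves the fold changes as they are, both calls were lost (adjusted p = 0.0713 and 0.0529). They were also lost with the GC and length trend removed, at 0.16 and 0.15 (adjusted p = 0.0784 and 0.0858). EIF2S1, the alpha subunit that the kinases phosphorylate, stood at -0.02 and -0.08 (adjusted p = 0.949 and 0.665). EIF2S2, the beta subunit, stood at -0.22 and -0.32 (adjusted p = 0.332 and 0.0688). Under mezigdomide EIF2S2 passed with features of a mean of at least 50 only (adjusted p = 0.0482), with protein-coding features only (adjusted p = 0.0494) and with the GC and length trend removed (-0.36, adjusted p = 0.0342).

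EIF2S3B, a close copy of EIF2S3 on chromosome 12, went from 319.2 normalised counts in DMSO to 359.6 and 389.8. It was called higher under mezigdomide (log2 0.29, SE 0.099, adjusted p = 0.021) and not under iberdomide (0.17, adjusted p = 0.316). Its reads are not cleanly its own, since 49.8% of the 37-base words of its transcript also occur in EIF2S3. EIF2A and EIF2D, which can deliver initiator tRNA without eIF2, lay within 0.04 of 0 under both drugs (adjusted p from 0.749 to 0.978). Per kb of transcript EIF2S3 stood at 2936 normalised counts, EIF2S2 at 1531 and EIF2S1 at 864, though 29.7% of the words of EIF2S3 and 26.8% of those of EIF2S2 are shared with other annotated genes.

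The 5 subunits of eIF2B, the exchange factor of eIF2, had 4 negative fold changes under each drug, with 0 called under iberdomide and 1 called, lower, under mezigdomide. EIF2B3, the gamma subunit (chromosome 1, 44850522 to 44986722), was at 1204 normalised counts in DMSO, 958.6 under iberdomide and 913.2 under mezigdomide. It fell by 0.40 on the log2 scale under mezigdomide (SE 0.13, adjusted p = 0.0157), and stood at -0.33 under iberdomide (SE 0.13, adjusted p = 0.0803). EIF2B1, EIF2B2 and EIF2B4 lay between -0.11 and -0.17 under iberdomide and between -0.17 and -0.19 under mezigdomide, with adjusted p from 0.111 to 0.54. EIF2B5, the catalytic epsilon subunit, stood at 0.02 and 0.04 (adjusted p = 0.905 and 0.756). Its 95% interval under mezigdomide ran from -0.09 to 0.17, while that of EIF2B3 ran from -0.66 to -0.14. The median over the 5 subunits was -0.14 under iberdomide and -0.19 under mezigdomide.

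The large scaffold eIF3, which holds the small subunit, the mRNA and eIF4G together, had 1 of 14 members called under each drug. That member was EIF3L (chromosome 22, 37848868 to 37889407), a subunit of the octamer core. It went from 4617 normalised counts in DMSO to 5940 under iberdomide and 5990 under mezigdomide. EIF3L rose by 28.7% (log2 0.36, SE 0.062, adjusted p = 1.65e-07) under iberdomide and by 29.8% (log2 0.38, SE 0.062, adjusted p = 3.88e-08) under mezigdomide, the smallest adjusted p among the members in both comparisons. In its transcript 47.9% of the 37-base words are shared with other annotated genes on the same strand, 40.6% with AL022311.1, whose own mean was 56.2 normalised counts.

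The other members of eIF3 lay between -0.37 and 0.16 under iberdomide and between -0.32 and 0.15 under mezigdomide. EIF3A, the largest subunit, stood at -0.03 and -0.002 with an SE of 0.051 (adjusted p = 0.802 and 0.983), so that its 95% interval under mezigdomide was -0.10 to 0.10. EIF3E, the member of eIF3 with the highest mean (24380 normalised counts), stood at 0.13 under each drug (adjusted p = 0.473 and 0.364). The 8 octamer subunits (EIF3A, EIF3C, EIF3E, EIF3F, EIF3H, EIF3K, EIF3L and EIF3M) had a median of 0.06 under iberdomide and 0.01 under mezigdomide. EIF3B, EIF3D, EIF3G, EIF3I and EIF3J had a median of -0.06 and -0.14, with 0 called. EIF3C and its copy EIF3CL read low, at 268.5 and 51.6 normalised counts, where the lowest of the other eIF3 subunits was EIF3F at 4372. Of their 37-base words 97.3% and 99.2% occur in the other copy, so reads of this pair can hardly be assigned and their levels and fold changes (adjusted p from 0.252 to 0.922) are uncertain.

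Of the eIF4A helicases EIF4A2 was called higher under both drugs and EIF4A1 was not called, and the difference between them was not tested. EIF4A2 (chromosome 3, 186783205 to 186789900) went from 7835 normalised counts in DMSO to 9549 and 10110. It rose by 21.9% under iberdomide (log2 0.29, SE 0.078, adjusted p = 0.00295) and by 29.1% under mezigdomide (log2 0.37, SE 0.078, adjusted p = 3.16e-05). EIF4A1, its more abundant paralog, stood at -0.03 and -0.09 (adjusted p = 0.918 and 0.553), with a 95% interval of -0.26 to 0.08 under mezigdomide. Per kb of transcript EIF4A2 made up 25.1% of the sum of both in DMSO, 29.3% under iberdomide and 31.4% under mezigdomide. Every 37-base word of the EIF4A1 transcript also occurs in another annotated gene, against 14.9% of the words of EIF4A2. Of the EIF4A1 words 94.1% occur in AC016876.2, for which no mean was found, and the effect on its reads was not tested. EIF4A3, a helicase of the exon junction complex and not of eIF4F, stood at -0.07 and -0.18 (adjusted p = 0.775 and 0.162).

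Among the cap-binding proteins EIF4E3 was called higher under mezigdomide. It went from 881.2 normalised counts in DMSO to 956.7 under iberdomide and 1120 under mezigdomide. The authors' deposited tables give 0.35 (SE 0.072, adjusted p = 2.21e-05) under mezigdomide and 0.12 (SE 0.073, adjusted p = 0.353) under iberdomide. EIF4E, the main cap-binding factor, stood at -0.17 and -0.22 (adjusted p = 0.38 and 0.139), and with the GC and length trend removed it passed under mezigdomide (-0.38, adjusted p = 0.00277). EIF4E2, which represses translation of capped mRNA, stood at 0.03 and 0.005 (adjusted p = 0.913 and 0.982). The scaffolds EIF4G1 (-0.08 and -0.07) and EIF4G2 (-0.02 and -0.04) were not called, with adjusted p from 0.589 to 0.911. EIF4G2, with 24860 normalised counts the most abundant member by mean, had a 95% interval of -0.14 to 0.05 under mezigdomide. EIF4G3 stood at 0.14 and 0.28 (adjusted p = 0.555 and 0.065), and it passed under mezigdomide with features of a mean of at least 50 only (adjusted p = 0.0454), with protein-coding features only (adjusted p = 0.0466) and after centring (0.29, adjusted p = 0.0497). EIF4ENIF1, a carrier of eIF4E into the nucleus, stood at 0.03 and 0.07 (adjusted p = 0.915 and 0.696).

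The eIF4E-binding proteins, the brakes on eIF4E, included the member with the largest fall. EIF4EBP1 was at 5387 normalised counts in DMSO, 4045 under iberdomide and 3757 under mezigdomide. Its level fell by 24.9% under iberdomide (log2 -0.41, SE 0.14, adjusted p = 0.0209). Under mezigdomide it fell by 30.2% (log2 -0.52, SE 0.14, adjusted p = 0.0013). Its transcript has the highest GC content of all members, 65.5%, and both calls were lost with the GC and length trend removed (-0.27, adjusted p = 0.222, and -0.30, adjusted p = 0.117). EIF4EBP2 stood at 0.18 under iberdomide (SE 0.072, adjusted p = 0.0845) and was called higher under mezigdomide at 0.19 (SE 0.072, adjusted p = 0.0382). That call was lost with no filter on low means (adjusted p = 0.0647) and with the trend removed (0.11, adjusted p = 0.317). EIF4EBP3 stood at 0.11 and 0.08 (adjusted p = 0.77 and 0.796). Of its words 72.4% are shared with the read-through gene ANKHD1-EIF4EBP3, for which no mean was found. Per kb of transcript EIF4EBP1 made up 79.9% of the sum of the 3 binding proteins in DMSO, 72.8% under iberdomide and 71.4% under mezigdomide.

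Of the early and late factors, EIF1AD and EIF5A were called. EIF1AD (chromosome 11, 65996545 to 66002176) went from 945.8 normalised counts in DMSO to 751.8 under iberdomide and 760.8 under mezigdomide. It fell by 0.33 (SE 0.078, adjusted p = 0.00036) and by 0.31 (SE 0.078, adjusted p = 0.000562) on the log2 scale. The start-site factors EIF1, EIF1B and EIF1AX were negative but not called, between -0.06 and -0.26 (adjusted p from 0.159 to 0.839). EIF5A, the factor that carries hypusine and also acts in elongation, went from 8927 normalised counts to 8103 and 7397. It fell by 0.27 under mezigdomide (SE 0.095, adjusted p = 0.0236) and stood at -0.14 under iberdomide (adjusted p = 0.421). The mezigdomide call of EIF5A was lost with the GC and length trend removed (-0.22, adjusted p = 0.0972), and 43.3% of its words are shared, mostly with EIF5AL1. Its paralog EIF5A2 was rare, at a mean of 66.9 normalised counts, and was not called (0.05 and -0.11, adjusted p = 0.931 and 0.772).

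EIF5, the activator of GTP hydrolysis by eIF2, stayed at 0.02 and 0.03 (SE 0.072, adjusted p = 0.919 and 0.874). EIF5B, which joins the ribosomal subunits, stood at -0.19 and -0.27 (adjusted p = 0.497 and 0.188), and passed under mezigdomide with the trend removed (-0.39, adjusted p = 0.0337). EIF6, which keeps the subunits apart, stood at -0.14 and -0.26 (adjusted p = 0.497 and 0.0706) and passed under mezigdomide with features of a mean of at least 50 only (adjusted p = 0.0495). EIF5AL1, a relative of EIF5A, stood at -0.18 and -0.24 (adjusted p = 0.408 and 0.151). Of its words 21.6% are shared, 14.8% with EIF5A, so its reads are not cleanly its own. The 6 members of the eIF5 and eIF6 group, EIF5AL1 included, had a median of -0.14 under iberdomide and -0.25 under mezigdomide. The latter was the lowest median of the 8 groups under mezigdomide.

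Set side by side under mezigdomide, eIF2 had 2 of 6 members higher and 0 lower (median -0.006), eIF2B 0 higher and 1 of 5 lower (-0.19), eIF3 1 of 14 higher and 0 lower (-0.06) and eIF4 2 of 12 higher and 0 lower (-0.02). Under iberdomide these medians were 0 for eIF2, -0.14 for eIF2B, -0.04 for eIF3 and 0.006 for eIF4. In that order 1, 0, 1 and 1 members were higher and 0 lower. Of all tested features 10.4% were higher and 10.7% lower under mezigdomide, and 7.3% and 6.77% under iberdomide. The 2 eIF2 members are EIF2S3 and EIF2S3B, and 49.8% of the EIF2S3B words occur in EIF2S3, so they are not separate signals. The mezigdomide call of EIF2S3 was lost with no filter on low means and with the GC and length trend removed. The eIF2 median turned to 0.008 under mezigdomide after centring, and the eIF4 median to -0.008 under iberdomide with the GC and length trend removed, so their signs carry no direction. The difference between groups was not tested, since members were chosen as a family and are not replicates of a condition.

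**Figure D2:**
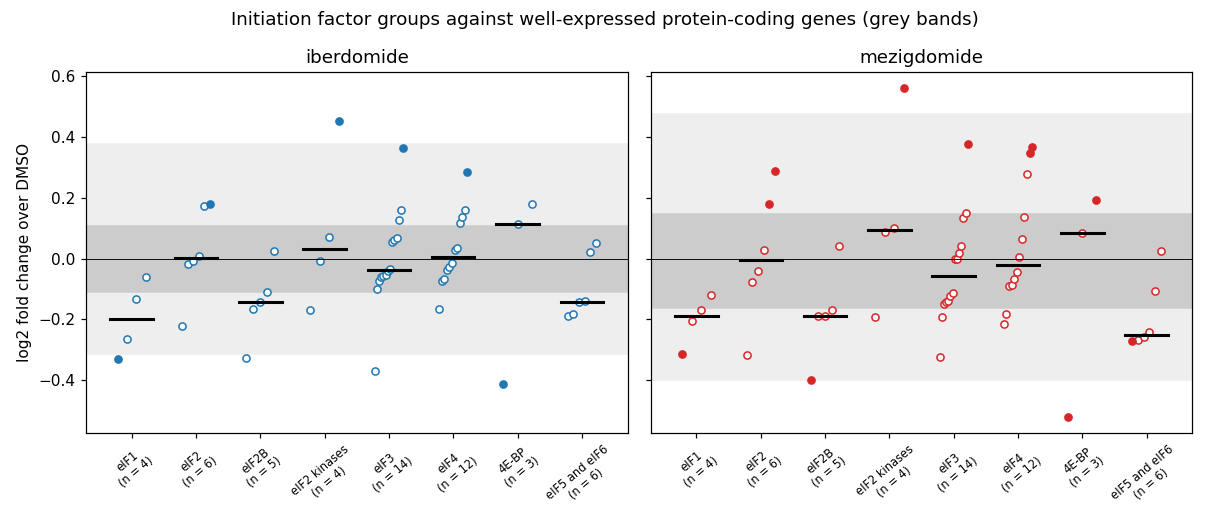
Log2 fold change over DMSO (y axis) of each member by factor group, under iberdomide (left) and mezigdomide (right), with the group median as a black line and filled points for an adjusted p under 0.05. The grey bands show 5779 protein-coding genes with a mean of 1000 or more, dark for the interquartile range and light for the 5th to the 95th percentile (-0.31 to 0.38 and -0.40 to 0.48). EIF2AK2 lies above and EIF4EBP1 below the light band under both drugs, and the eIF3 and eIF4 medians lie near 0.

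The 54 members together made up 1.36% of all normalised counts, with 0.516% in eIF3 and 0.447% in eIF4. Per kb of transcript EIF3E stood highest at 15800 normalised counts, followed by EIF4A1 at 11900, EIF3K at 7845 and EIF4G2 at 6212. These levels have no error across genes and depend on the transcript taken as the length, and neighbours in this order can change places with another choice. Of the eIF4F components EIF4E had the lowest level, 92.9 per kb, on a transcript of 11523 bases. The 5 eIF2B subunits ran from 148 (EIF2B2) to 1129 (EIF2B5) per kb, all under EIF2S2 and EIF2S3, while EIF2B1 (1120) and EIF2B5 were above EIF2S1 (864).

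**Figure D3:**
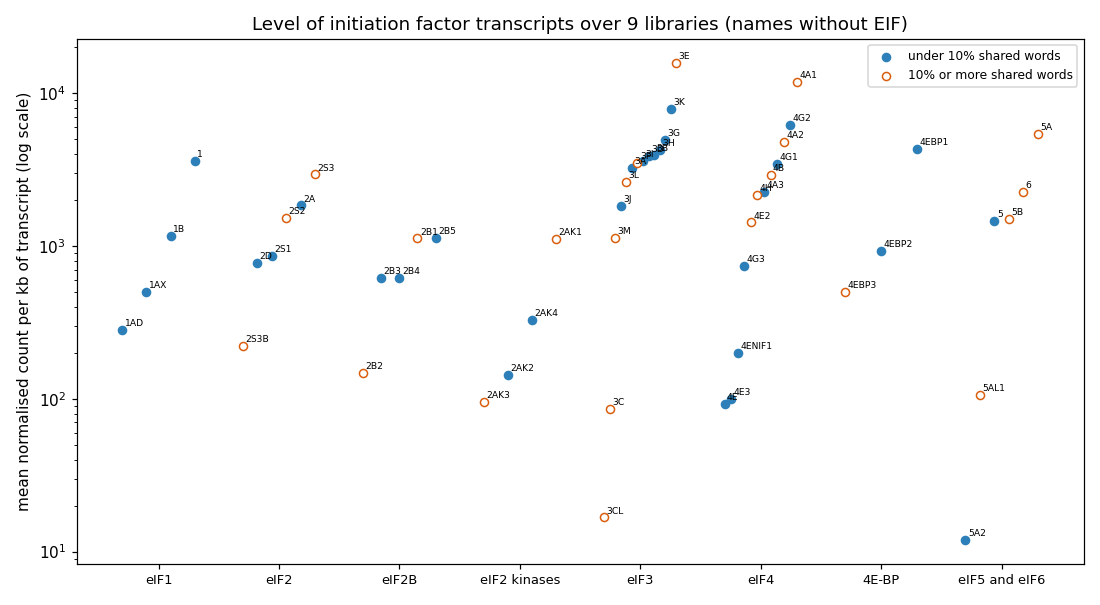
Mean normalised count over all 9 libraries per kb of transcript (y axis, log scale) of each member by factor group. Open points mark the 23 members whose transcript shares at least 10% of its 37-base words with another annotated gene, and EIF3C and EIF3CL are the open points at the bottom of eIF3.

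The comparison of the drugs with each other, mezigdomide minus iberdomide, gave 0 of 54 members past an adjusted p of 0.05 in the normal test of the 2 fold changes with independent errors. Over all 19497 features 0.108% were called. EIF4E3 was the 1 member under an unadjusted threshold of 0.05, at 0.23 with a 95% interval of 0.03 to 0.43. With an error correlation of 0.5, the value that shared DMSO libraries of equal spread give, 0.605% of features and again 0 members were called, and EIF4E3 reached an adjusted p of 0.179. The doses differ, 1 µM against 50 nM, so the values stand side by side as measured. The 95% interval of the difference lay within 1.5-fold either way for 52 of 54 members, all but EIF3CL and EIF5A2. For EIF2AK2 the difference was 0.11 (95% interval -0.17 to 0.39), and for EIF5A it was -0.13 (-0.39 to 0.13).

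**Figure D4:**
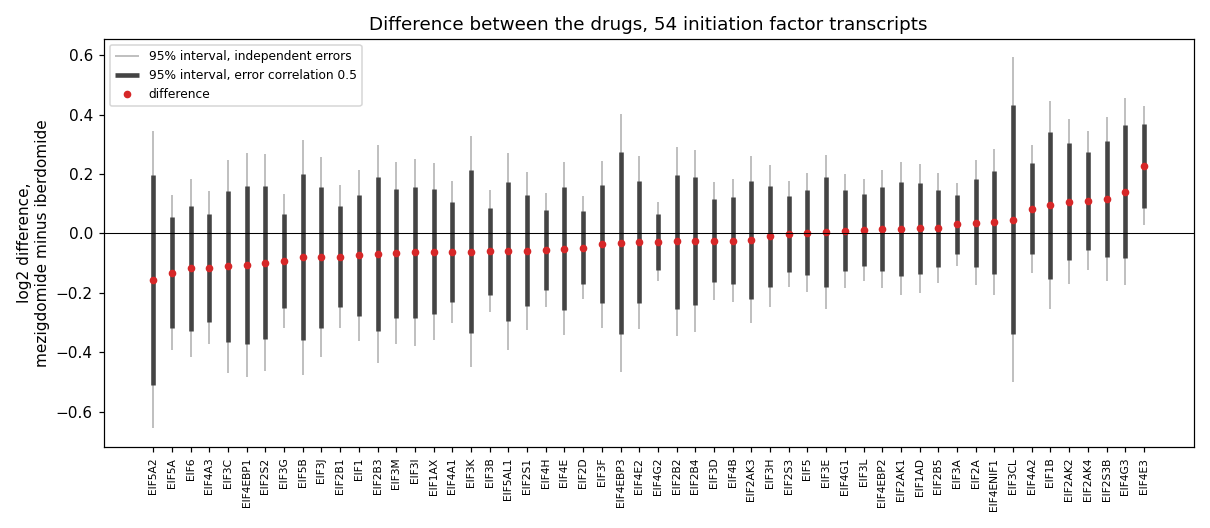
Difference of the log2 fold changes, mezigdomide minus iberdomide (y axis), for the 54 members in order of size, with 95% intervals for independent errors (thin) and for an error correlation of 0.5 (thick). EIF4E3, at 0.23, is the 1 member whose interval leaves out 0.

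The promoter windows were searched on both strands for motifs of known factors, and a match is a description of letters only. The core of the interferon-stimulated response element, GAAANNGAA, was found in 8.11% of all 35116 windows and in 10 of the 62 windows of members. It was searched after the rise of EIF2AK2 was seen. It was found in 9 of the 46 members with a window. Of these 9 only EIF2AK2 was called, higher under each drug, beside 14.1% of all features called under iberdomide and 21.2% under mezigdomide. In EIF2AK2 the core spans the annotated start. The E-box CACGTG was in 7.26% of all windows and in 19.4% of those of members. It was found in 12 of the 46 members with a window, among them EIF4E, EIF4G1, EIF4B and EIF2B3. Of these 12 members 1 was called higher (EIF2AK2) and 1 lower (EIF2B3) under mezigdomide, 16.7% beside 21.2% of all features. Under iberdomide 1 was called higher and 0 lower, 8.33% beside 14.1% of all features. The ETS motif CCGGAAG was in 10.3% of all windows and in 24.2% of those of members. It was found in 13 members, among them EIF1AD, EIF5A, EIF4EBP2 and EIF2S3B. Of these 13, 2 were called higher and 2 lower under mezigdomide, 30.8% beside 21.2% of all features. Under iberdomide 0 were called higher and 1 lower, 7.69% beside 14.1% of all features. The core GGGAA of Ikaros sites was in 65.0% of all windows and in 61.3% of those of members. The ATF4 response element core TGATGCAA and the cyclic AMP response element TGACGTCA, in 0.866% and 1.85% of all windows, were in 0 windows of members.

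A start with C and then 4 pyrimidines was found in 4.07% of all windows and in 16.1% of those of members. The 10 members with it are EIF2A, EIF2D, EIF2S3, EIF2S3B, EIF3D, EIF3F, EIF3K, EIF3M, EIF4A2 and EIF4B. Of these 10, 3 were called higher under mezigdomide and 0 lower, with a median of 0.04, and under iberdomide 2 were higher and 0 lower, with a median of 0.06. Called in either direction were thus 30.0% and 20.0% of these few members, beside 21.2% and 14.1% of all features. This feature was chosen after the values were seen, and EIF2S3B shares sequence with EIF2S3.

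Across the 54 members a higher GC content went with a lower Wald statistic (Spearman rho = -0.265 under iberdomide and -0.336 under mezigdomide), as it did across 19210 tested features (-0.19 and -0.225). These are correlations across genes of the same libraries, which are not independent replicates. Of the 11 members called under mezigdomide, 7 were also called with the GC and length trend removed, and EIF2AK2, EIF3L, EIF4A2 and EIF1AD were called under both drugs in that setting as well.

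Partners of the factors were taken from 5 lists. Of 18 genes of eIF2 phosphorylation and the stress response 3 were higher and 6 lower under each drug, with a median of -0.09 under iberdomide and -0.16 under mezigdomide. Called were thus 50.0% under each drug, beside 14.1% and 21.2% of all tested features. The pseudokinase TRIB3, a target of the stress factor ATF4, fell by 0.83 and 0.90 (SE 0.12 each, adjusted p = 7.05e-11 and 1.08e-12). CHAC1, a glutathione-degrading enzyme, fell by 0.83 and 1.03 (SE 0.15 each, adjusted p = 7.21e-07 and 2.28e-10), and DDIT3, the stress factor CHOP, by 0.72 and 0.95 (SE 0.14 each, adjusted p = 9.55e-06 and 9.75e-10). SESN2, a stress-induced inhibitor of mTORC1, fell by 0.60 and 0.59 (SE 0.11 each, adjusted p = 1.99e-06 and 2.18e-06). IMPACT, an inhibitor of GCN2 activation, rose by 0.32 and 0.38 (SE 0.073 each, adjusted p = 0.000226 and 3.82e-06).

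The list of mTORC1 and MNK control had 1 of 15 higher and 0 lower under iberdomide, and 2 higher and 1 lower under mezigdomide. Called were thus 6.67% and 20.0%, beside 14.1% and 21.2% of all tested features. PDCD4, an inhibitor of eIF4A, rose by 0.47 and 0.48 (SE 0.068 each, adjusted p = 1.22e-10 and 7.18e-11). Under mezigdomide RPS6KB1, an S6 kinase gene, rose by 0.25 (SE 0.068, adjusted p = 0.0024) and its paralog RPS6KB2 fell by 0.36 (SE 0.086, adjusted p = 0.000359). The list of mRNA binding and recycling partners had 2 of 18 higher and 1 lower under iberdomide, and 3 higher and 1 lower under mezigdomide. That is 16.7% and 22.2% called, beside the same shares of all features. CYFIP1, an eIF4E-binding partner of FMRP, rose by 0.68 and 0.75 (SE 0.069 each, adjusted p = 6.08e-21 and 1.63e-25). NCBP2, a nuclear cap-binding subunit, rose by 0.21 and 0.24 (SE 0.069 each, adjusted p = 0.025 and 0.00362). The helicase DDX3X rose by 0.28 under mezigdomide (SE 0.076, adjusted p = 0.00254) and stood at 0.19 under iberdomide (adjusted p = 0.0688). CCDC124, which binds idle ribosomes, fell by 0.26 and 0.37 (SE 0.098 each, adjusted p = 0.0491 and 0.0013).

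Elongation factor genes had 1 of 12 higher and 3 lower under iberdomide, and 1 higher and 4 lower under mezigdomide. Called were thus 33.3% and 41.7%, beside 14.1% and 21.2% of all tested features. EEF1A2, the tissue-restricted paralog of the tRNA carrier EEF1A1, fell by 2.14 and 2.82 (SE 0.17 and 0.18, adjusted p = 2.4e-33 and 1.37e-53), at a mean of 140.0 normalised counts against 34850 for EEF1A1. EEF1A1 stood at 0.20 and 0.17 (adjusted p = 0.109 and 0.151). EEFSEC, the selenocysteine elongation factor, fell by 0.40 and 0.41 (SE 0.09 each, adjusted p = 0.000217 and 8.39e-05). EEF2K, the inhibitory kinase of eEF2, rose by 0.31 and 0.32 (SE 0.11 each, adjusted p = 0.0366 and 0.0204). DOHH, which completes hypusine on eIF5A, fell by 0.33 and 0.40 (SE 0.11 each, adjusted p = 0.0274 and 0.00254), and DHPS, which starts it, fell by 0.19 under mezigdomide (SE 0.071, adjusted p = 0.0341) and stood at -0.12 under iberdomide (adjusted p = 0.316). Of 7 mitochondrial initiation and elongation genes 0 were called under iberdomide and 1 (14.3%) under mezigdomide, beside the same shares of all features. That gene was MTIF3, which fell by 0.36 under mezigdomide (SE 0.14, adjusted p = 0.0384). Under iberdomide it stood at the same size, -0.36 (SE 0.14, adjusted p = 0.0507), just short of a call.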

How the data were processed

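Poly(A) RNA of 9 MOLM13 libraries was read as 37 bp pairs, per the labels' protocols. DESeq2, HTSeq 0.6.1pl, SAMtools 1.95, Picard 2.9.4, STAR 2.7.5a, bcl2fastq 2.20.0.422 and the build GRCh38 are listed, with no role or order, per the submitters' processing notes. How reads were counted, and against which annotation release, is not given in the sources used here, nor is strand. Per the file headers, the authors deposited DESeq2 results: a mean signal (mean count divided by size factors), a log2 fold change, the p-value before and after adjustment, and 2 score columns, the standard error and Wald statistic. The deposited p-values, recomputed here, are two-sided normal p-values. In the files fold changes and SEs both approach 0 at the lowest means, the form a shrinking prior gives, though no header records one, so changes of low genes may be understated.

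Left out were 44 rows of second copies on chromosome Y and 92 rows without a gene name, with 3.39e-05% of the counts. Adjusted p-values were used as deposited, over features with a mean of at least 2.87 (iberdomide) or 2.01 (mezigdomide). The drug difference took both SEs as independent, with a two-sided normal test and Benjamini-Hochberg adjustment over 19497 features, and was tested on simulated data. Intervals are estimate ± 1.96 SE. GC content, lengths and shared 37-base words came from GENCODE 29 transcripts (GRCh38), 1 per gene (basic, principal and best supported, then longest). GC and length were known for all 55 members and 98.5% of tested features. Their trend, quadratic in GC content and log2 length, was subtracted from the statistic. Named are members called in any comparison, all of eIF2, eIF2B and the binding proteins, their paralogs and the highest and lowest mean of each group. Also named, chosen after their values were seen, are EIF1AX, EIF1B, EIF2AK4, EIF3A, EIF3C, EIF4A3, EIF4G1, EIF4G3, EIF5, EIF5AL1 and EIF6. From each partner list come the called genes with the largest Wald statistic, at most 4. IMPACT, DHPS and EEF1A1 were added after their values were seen. Of the marker lists 1 is not reported here. The members and lists were chosen with earlier results of these data known. Depth was recovered from genes with 1 read in 1 library and is approximate. Python 3.11.15, pandas 2.3.3, numpy 2.4.6 and scipy 1.17.1 were used.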

Additional observations from a re-analysis of the deposited data

How the results depend on the processing

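Without values per library, leaving out replicates, other normalizations and refits with edgeR or DESeq2 were not run. No paired analysis was possible because the columns carry no values per library. Under iberdomide the 2 members called lower became 1 with the GC and length trend removed and 1 at an adjusted p under 0.01. Under mezigdomide that threshold left 6 members (4 higher and 2 lower) of 11. The shares of all features called at that threshold, or with the trend removed, are not given here, so these counts have no background. Without the members that share at least 10% of their words, an alternative chosen after seeing the data, 31 members were tested. Of these 3 were called under iberdomide (1 higher) and 6 under mezigdomide (3 higher). That is 9.68% and 19.4%, beside 11.1% and 20.4% of all 54 tested members and 14.1% and 21.2% of all features. With the GC and length trend removed the iberdomide median of the eIF2 kinases turned to -0.004 and that of eIF4 to -0.008, and after centring the mezigdomide median of eIF2 turned to 0.008; the cause was not tested. The count between the drugs was 0 under all 8 alternatives run. Of these, the stricter threshold and the removal of members with shared words could only return 0, because the main setting had called 0. With the trend removed 11 members were still called under mezigdomide, 5 higher and 6 lower, but they included EIF2AK3, EIF2S2, EIF4E and EIF5B in place of EIF2S3, EIF4EBP1, EIF4EBP2 and EIF5A. Shared sequence, over 97.3% or more of the transcript, limits EIF3C and EIF3CL. EIF4A1 shares all its words, 94.1% of them with AC016876.2, for which no mean was found, and the effect on its reads was not tested.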
